A study of Ovis aries and Capra hircus and Bos taurus with 26 samples.

Results

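The intervals described here are the peaks of H3K27ac and H3K4me3 on 6 chromosomes, which were chosen by name as homologues reputed to be gene-rich. They are chromosomes 19 and 25 of cattle, 11 and 24 of sheep and 19 and 25 of goats, where sheep 11 and sheep 24 are the counterparts of cattle 19 and cattle 25. Of the 616400 peaks in all lists, 46857 lay on these chromosomes and 519424 on the other autosomes. The 8 H3K27ac libraries held 25836 of them (2793 to 3790 per library) and the 9 H3K4me3 libraries 21021 (2067 to 2469 per library). The tissue was liver from healthy adult animals without treatment, 3 Holstein cattle, 3 Texel sheep and 3 Yunnan black goats, each animal called A, B or C within its species. Every group held animals A, B and C, except that the H3K27ac group of cattle held animals B and C only. Each list comes from ChIP-seq, in which chromatin is precipitated with an antibody, here against 1 of the marks, and the recovered DNA is sequenced. Peak lists carry no read numbers, so the depth of a library was not measured here. The labelled tissue was not checked against marker genes, because no gene annotation of these genome builds was used.

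H3K27ac is the acetylation of lysine 27 of histone H3, and nucleosomes at active promoters and active enhancers carry it. H3K4me3 is the trimethylation of lysine 4 of the same histone and is found at the start sites of genes, in particular at promoters rich in CpG dinucleotides. An H3K27ac peak that overlaps no H3K4me3 is therefore commonly read as a candidate enhancer, and one that carries both marks as a candidate promoter. Mammalian chromosomes differ widely in how densely genes are packed, and the housekeeping genes that every cell uses tend to lie on the gene-dense ones.

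The name gene-rich was checked first. In a RefSeq annotation of another sheep assembly (ARS-UI_Ramb_v3.0), chromosomes 11 and 24 held 1892 of the 20201 autosomal protein-coding genes, or 9.37%. In the peak lists of sheep the same chromosomes took 3.92% of the autosomal extent, which is the sum over autosomes of the end of the last peak in any library. Sheep 14, the homologue of cattle 18 and one of the other autosomes here, held 1256 of these genes (6.22%) on 2.68% of the extent. That was more by number than chromosome 11 (1178) or chromosome 24 (714). Chromosome 11 held 5.83% of the genes on 2.30% of the extent, and chromosome 24 held 3.53% on 1.62%. Relative to extent, chromosome 14 thus lay between 11 and 24, so a high share of genes does not set both apart from it. No such count was made for cattle or goats.

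Peaks of both marks were about 2 times as dense on the 19 and 25 homologues as on the other autosomes, in every animal. For H3K27ac, the cattle libraries had 29.9 (animal B) and 31.5 (C) peaks per Mb on chromosomes 19 and 25, against 14.8 and 16.5 on the other autosomes. In sheep, the H3K27ac density was 28.3 (A), 26.9 (B) and 29.3 (C) peaks per Mb on 11 and 24, against 13.9, 12.9 and 14.4. Goat libraries reached 30.9 (A), 36.0 (B) and 33.3 (C) H3K27ac peaks per Mb on 19 and 25, against 15.8, 19.1 and 17.05. In all 3 species the lowest of these values on the homologues lay above the highest of the other autosomes, each pooled over its chromosomes. Single other autosomes came closer. Goat 18, one of them, had 31.2 H3K27ac peaks per Mb in goat B, above the 30.9 of goat A on 19 and 25. The log2 excess of H3K27ac peaks per Mb averaged 0.99 ± 0.05 (SD, n = 8), a ratio of 1.99, and ran from 0.92 to 1.06 (higher in 8 of 8 libraries, p = 0.00781, two-sided exact sign-flip test over libraries). That p is the smallest the test can give with 8 libraries.

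For H3K4me3, the density on the 19 and 25 homologues was 22.2 (A), 19.5 (B) and 21.3 (C) peaks per Mb in cattle, against 10.1, 9.05 and 9.72 on the other autosomes. Sheep had 23.03 (A), 23.7 (B) and 23.5 (C) H3K4me3 peaks per Mb on 11 and 24, against 9.65, 10.6 and 10.3. The goat values were 20.7 (A), 22.9 (B) and 23.4 (C) H3K4me3 peaks per Mb on 19 and 25, against 9.03, 10.4 and 10.6. The log2 excess of H3K4me3 averaged 1.16 ± 0.04 (SD, n = 9), a ratio of 2.24, with a range of 1.11 to 1.26 (higher in 9 of 9 libraries, p = 0.00391, exact sign-flip test, two-sided, with 9 libraries as low as it can go). With only the other autosomes under 80 Mb for comparison, the mean log2 excess was smaller, at 0.81 for H3K27ac and 0.92 for H3K4me3. These sign-flip tests compare chromosomes within a library. They speak of the animals sampled, since animals of 1 species share a genome, and they do not treat chromosomes as a random draw. Across all 35 tests in this family, the 27 with p under the threshold of 0.05 kept Benjamini-Hochberg adjusted values of at most 0.0203.

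**Figure D1:**
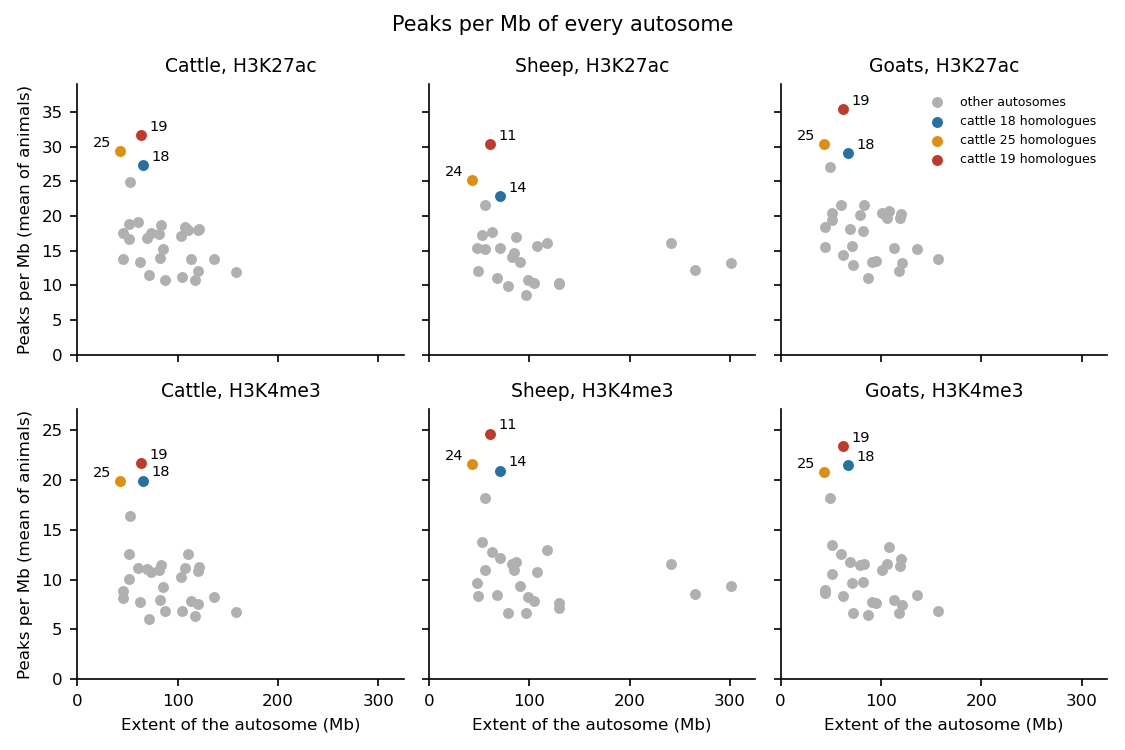
Peaks per Mb (vertical axis, mean over the animals of a species) against the extent in Mb (horizontal axis) of every autosome, for each species and mark. The cattle 19 homologue (red) has the most peaks per Mb in all 6 panels, the cattle 25 homologue (orange) and the cattle 18 homologue (blue, chromosome 18 of cattle and goats and 14 of sheep) follow, and the grey points are the other autosomes.

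Among single chromosomes, the cattle 19 homologue held rank 1 of all autosomes of its species in each of the 17 libraries. The cattle 25 homologue held rank 2 for H3K27ac in all 8 libraries. For H3K4me3 it held rank 2 in the 3 sheep and in cattle A, and rank 3 in cattle B and C and in the 3 goats. Where it was at rank 3, the homologue of cattle 18 was at rank 2. H3K27ac averaged 31.6 ± 1.2 peaks per Mb on cattle 19 (SD, n = 2), 30.3 ± 1.6 on sheep 11 and 35.4 ± 2.8 on goat 19 (SD, n = 3 each). Its means on the 25 homologues were 29.4 ± 1.0 for cattle 25 (SD, n = 2), 25.2 ± 0.7 for sheep 24 and 30.4 ± 2.2 for goat 25 (SD, n = 3 each). H3K4me3 averaged 21.7 ± 1.2, 24.7 ± 0.2 and 23.4 ± 1.6 peaks per Mb on cattle 19, sheep 11 and goat 19, and 19.9 ± 1.5, 21.6 ± 0.6 and 20.8 ± 1.2 on cattle 25, sheep 24 and goat 25 (SD, n = 3 each).

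The 19 homologues were thus denser than the 25 homologues, and the difference was present in every library. Its log2 value was 0.21 ± 0.07 for H3K27ac (SD, n = 8, range 0.10 to 0.31, p = 0.00781, two-sided exact sign-flip test), and 0.14 among the 20000 strongest peaks of each library. For H3K4me3 it was 0.16 ± 0.04 (SD, n = 9, range 0.08 to 0.21, p = 0.00391, the same exact test). The H3K27ac difference was 0.10 and 0.11 in the cattle, 0.26, 0.23 and 0.31 in the sheep and 0.22, 0.24 and 0.20 in the goats, so the cattle values lay below those of the other species. Against the cattle 18 homologues, which belong to the other autosomes here, the 25 homologues had more H3K27ac peaks per Mb by 0.10 on the log2 scale (0.06 to 0.18, higher in 8 of 8 libraries, p = 0.00781, exact sign-flip test). No such difference was seen for H3K4me3, where the mean was -0.0012 with single libraries between -0.09 and 0.06 (higher in 4 of 9 libraries, p = 0.938, exact sign-flip test). The 19 homologues exceeded the 18 homologues by 0.31 for H3K27ac and 0.16 for H3K4me3, in every library (p = 0.00781 and 0.00391, exact sign-flip tests).

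The excess was larger for H3K4me3 than for H3K27ac. Within animals that had both marks, the log2 excess of H3K4me3 was above that of H3K27ac by 0.09 and 0.19 in cattle B and C. The corresponding values were 0.22, 0.10 and 0.16 in sheep A, B and C and 0.23, 0.22 and 0.18 in goats A, B and C. All 8 animals therefore differed the same way. Averaged over species, the difference between marks was 0.17 (p = 0.00025, two-sided exact permutation of mark labels within species, the smallest its 4000 arrangements allow). It fell to 0.06 when each library was reduced to its 20000 strongest peaks, and that value still passed the threshold (p = 0.0065, the same exact permutation test). In shares of the autosomal peaks, the 6 chromosomes took 7.65% to 8.25% for H3K27ac and 8.34% to 9.28% for H3K4me3 on 3.92% to 4.28% of the extent.

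H3K27ac peaks were then split by whether they overlapped an H3K4me3 peak of the same animal by at least 1 bp. Those with overlap carried most of the excess. On the 19 and 25 homologues they numbered 16.2 and 16.7 per Mb in cattle B and C, 18.3, 18.6 and 18.9 in sheep A, B and C, and 18.8, 21.2 and 20.6 in goats A, B and C. On the other autosomes they numbered 6.83 to 9.14 per Mb over all 8 libraries. Their log2 excess was 1.27 ± 0.05 (SD, n = 8), a ratio of 2.41 (range 1.21 to 1.36, p = 0.00781, two-sided exact sign-flip test).

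H3K27ac peaks without H3K4me3, the candidate enhancers, were denser as well, but by less. They numbered 13.7 and 14.8 per Mb in cattle B and C, 10.003, 8.22 and 10.4 in sheep A, B and C, and 12.1, 14.8 and 12.7 in goats A, B and C. The other autosomes had 7.96 and 9.27 per Mb in cattle, 6.72, 5.35 and 6.66 in sheep and 8.02, 9.92 and 8.41 in goats. The log2 excess was 0.63 ± 0.07 (SD, n = 8), a ratio of 1.55 (0.57 to 0.78, p = 0.00781, two-sided exact sign-flip test). On the 25 homologues alone it was 0.40, and for both homologues against other autosomes under 80 Mb it was 0.51. The lower of the 2 homologues still had more of them per Mb than 26 or 27 of the 27 other autosomes in cattle and 25 or 26 of 27 in goats. In sheep it exceeded only 20 or 21 of the 24 others, and sheep 24, at 7.80 ± 1.1 per Mb (SD, n = 3), was the lower homologue. Candidate enhancers on the 18 homologues averaged 12.2, 7.24 and 10.8 per Mb in cattle, sheep and goats. These stood beside 13.2, 7.80 and 11.2 on the 25 homologues.

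**Figure D2:**
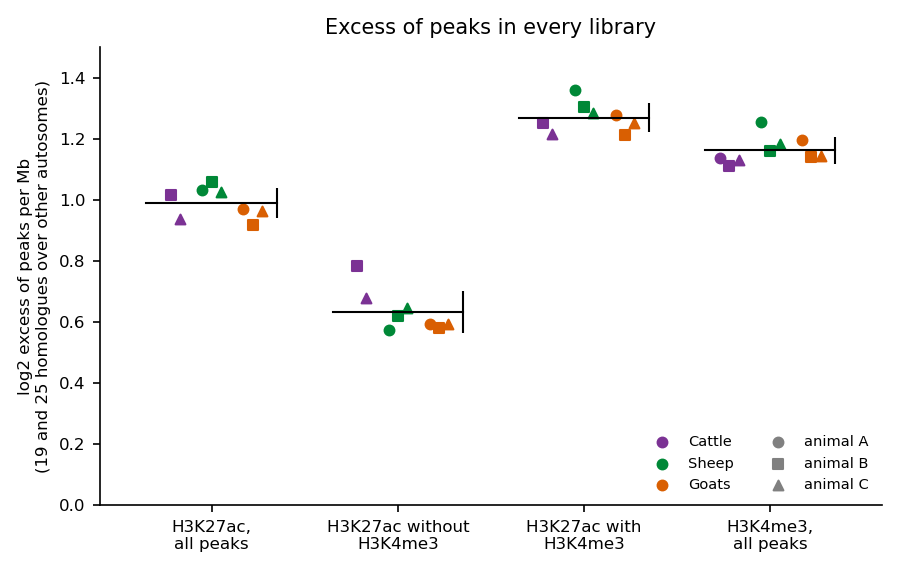
Log2 excess of peaks per Mb on the 19 and 25 homologues over the other autosomes of the same library (vertical axis), for 4 sets of peaks. Colours give the species and symbols the animal, horizontal lines the mean over libraries and vertical bars 1 SD. H3K27ac peaks without H3K4me3 sit between 0.57 and 0.78, and those with H3K4me3 between 1.21 and 1.36.

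The share of H3K27ac peaks without H3K4me3 was accordingly lower. It was 45.7% and 47.0% on chromosomes 19 and 25 of cattle B and C, against 53.8% and 56.3% on the other autosomes. In sheep A, B and C it was 35.3%, 30.6% and 35.5% on 11 and 24, against 48.5%, 41.5% and 46.2%. In goats A, B and C it was 39.2%, 41.2% and 38.1%, against 50.8%, 52.0% and 49.3%. The difference averaged -10.7 percentage points (SD 1.51, n = 8, range -13.2 to -8.10, p = 0.00781, exact sign-flip test, two-sided). The 25 homologue and the 18 homologue had the lowest and second lowest share among autosomes in all 8 libraries, in varying order. The 19 homologue came at rank 3 from the lowest in 7 libraries and at rank 4 in sheep C.

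The share and the density of candidate enhancers were also set against the number of H3K4me3 peaks in a stretch of chromosome. Chromosomes were cut into 1 Mb windows, and windows were sorted by the number of H3K4me3 peaks of the same animal. Those peaks also decide which H3K27ac peaks count as overlapping, so the share falls with their number in part by construction. Windows with at least 20 H3K4me3 peaks made up 38.3% to 52.8% of the windows on the 19 and 25 homologues, against 10.5% to 15.3% on the other autosomes. In both sets of chromosomes, and in every animal, the share of H3K27ac peaks without H3K4me3 was lowest in the windows with the most H3K4me3. On the 19 and 25 homologues it was 68.0% to 79.4% in windows with 0 to 4 H3K4me3 peaks and 25.8% to 38.7% in windows with 30 or more. On the other autosomes the corresponding ranges were 64.1% to 73.5% and 28.2% to 40.05%. The number of such peaks per window went the other way. On the homologues it was 3.19 to 4.53 in the first of these classes and 12.8 to 22.8 in the last, and elsewhere it was 1.53 to 3.08 and 12.5 to 21.2.

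When windows with a like number of H3K4me3 peaks were compared, the difference in share shrank to -1.46 percentage points (SD 0.92, n = 8, p = 0.0156, two-sided exact sign-flip test). It was negative in 7 of 8 animals, from -2.98 in sheep B to -0.90 in goat B, and 0.036 in cattle B. The number of H3K27ac peaks without H3K4me3 no longer differed past the threshold in such windows (log2 0.02, range -0.06 to 0.18, higher in 5 of 8 animals, p = 0.523, the same exact test). Cattle B stood highest, with 1447 such peaks where 1281 would be had at the rate of the other autosomes. Sheep B stood lowest, with 855 against 894. The windows on the 19 and 25 homologues were few in some classes, with 8 to 34 windows per class and animal. This comparison was chosen after the data had been seen, and the number of H3K4me3 peaks enters both the sorting and the share, for the homologues and the other autosomes alike.

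**Figure D3:**
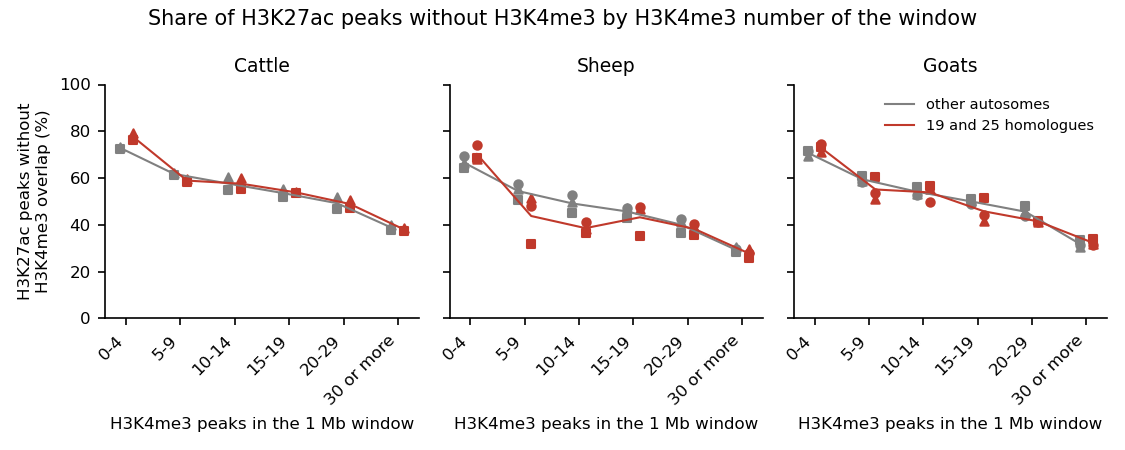
Share of H3K27ac peaks without H3K4me3 overlap in percent (vertical axis) in 1 Mb windows, sorted by the number of H3K4me3 peaks of the same animal (horizontal axis). Points are animals, with a circle for A, a square for B and a triangle for C, and lines are their mean, red for the 19 and 25 homologues and grey for the other autosomes. The share is lowest in the rightmost class for both, at 25.8% to 38.7% on the 19 and 25 homologues, against 68.0% to 79.4% in the leftmost.

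Peaks also lay closer together. The median gap between neighbouring H3K4me3 peaks on the 19 and 25 homologues was 16.3 to 16.7 kb in cattle, 15.2 to 15.7 kb in sheep and 15.2 to 16.5 kb in goats, against 27.4 to 33.3 kb on the other autosomes of all 9 libraries. The log2 difference was -0.92 (SD 0.05, n = 9, p = 0.00391, two-sided exact sign-flip test). For H3K27ac the gap was 9.17 to 12.1 kb, against 12.3 to 17.9 kb (log2 difference -0.51, SD 0.05, n = 8, p = 0.00781, the same exact test). Candidate enhancers had an H3K4me3 peak nearer by. The median distance from an H3K27ac peak without overlap to the nearest H3K4me3 peak was 8.52 to 12.9 kb, against 15.5 to 23.5 kb (log2 difference -0.84, SD 0.06, lower in 8 of 8 animals, p = 0.00781, exact sign-flip test). Within 5 kb of H3K4me3 lay 24.3% to 33.5% of them, against 16.3% to 25.3% on the other autosomes. Beyond 100 kb lay 3.51% to 7.22%, against 10.2% to 15.7%.

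The next comparison concerned the width of peaks and how often they recurred between animals. H3K27ac peaks on the 19 and 25 homologues had median widths of 478 to 555 bp over the 8 libraries, against 457 to 517 bp on the other autosomes, and were the wider ones in each library. The log2 difference of medians was 0.08 ± 0.02 (SD, n = 8, p = 0.00781, two-sided exact sign-flip test), a ratio of 1.06. H3K4me3 peaks had median widths of 743 to 844 bp, against 688 to 799 bp. Their log2 difference was 0.09 ± 0.05 (SD, n = 9, p = 0.00781, the same exact test), with 0.00 in goat A, where both medians were 797 bp, and 0.18 in sheep B. With peaks within 500 bp merged, the H3K27ac difference rose to 0.18, and among peaks with a −log10 q of at least 5 it was 0.04 for H3K27ac and 0.05 for H3K4me3. The mean width in place of the median gave 0.05 and 0.03, and H3K27ac peaks with 1 summit gave 0.05. Within classes of fold enrichment H3K4me3 gave 0.06, and all these were higher on the homologues. Among the 20000 strongest peaks of each library the direction was the other way, with log2 differences of -0.02 for H3K27ac (p = 0.0938, exact sign-flip test) and -0.03 for H3K4me3 (p = 0.00391, exact sign-flip test).

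Widths of H3K27ac were also compared within the classes by overlap. H3K27ac peaks with H3K4me3 overlap had median widths of 570 to 748 bp on the 19 and 25 homologues and 575 to 750 bp on the other autosomes. Within this class the homologues were the narrower ones in 7 of 8 animals, by -0.03 on the log2 scale (p = 0.0156, two-sided exact sign-flip test). Peaks without overlap had medians of 356 to 428 bp and 356 to 420 bp, and their log2 difference of -0.01 did not pass the threshold (range -0.05 to 0.03, p = 0.172, the same exact test). The difference over all H3K27ac peaks was thus not seen within either class. The 18 homologues had medians in the same range. H3K27ac medians averaged 535.5, 506.0 and 506.2 bp on the 18 homologues of cattle, sheep and goats, beside 535.0, 494.0 and 506.2 bp on the 19 homologues and 547.5, 510.0 and 497.0 bp on the 25 homologues.

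Recurrence was counted as the share of peaks that a peak of at least 1 other animal of the species covered over 50% of their length. For H3K27ac it was 82.4% and 69.3% in cattle B and C on chromosomes 19 and 25, against 78.7% and 63.2% on the other autosomes. Each cattle library had only 1 other library to recur in. In sheep A, B and C the H3K27ac values were 79.7%, 88.5% and 78.7%, against 76.0%, 84.6% and 75.1%. In goats A, B and C they were 88.4%, 82.3% and 83.1%, against 85.7%, 77.6% and 80.8%. The difference was 3.83 percentage points (SD 1.19, n = 8, range 2.27 to 6.12, p = 0.00781, two-sided exact sign-flip test). Recurrence is scored between libraries of a species, so values within a species are not independent, and both cattle values come from 1 pair of lists. No test of recurrence here allows for this. For H3K4me3, recurrence was 85.0% to 97.4% on the 19 and 25 homologues and 84.0% to 96.9% on the other autosomes, a difference of 2.02 points (SD 1.0, n = 9, range 0.44 to 3.18, p = 0.00391, the same exact test). It was 3.68 points for recurrence in all other animals and 0.996 points among the 20000 strongest peaks. H3K27ac recurrence on the 18 homologues, 75.9%, 82.1% and 84.6% in cattle, sheep and goats, stood beside the 75.6%, 81.9% and 83.9% on the 19 homologues and the 76.4%, 83.1% and 85.7% on the 25 homologues, and these were not tested against each other.

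This difference, too, was smaller within classes of H3K27ac peaks. Peaks with H3K4me3 overlap recurred at 84.9% to 95.8% on the 19 and 25 homologues, 1.16 points above the other autosomes (range 0.16 to 1.86, higher in 8 of 8 animals, p = 0.00781, two-sided exact sign-flip test). Candidate enhancers recurred at 51.8% to 77.0%, and their difference of 0.75 points did not pass the threshold (range -1.60 to 4.17, higher in 4 of 8 animals, p = 0.344, the same exact test). Among these, the cattle were 2.57 and 4.17 points higher in B and C, the sheep were at -0.20, 0.52 and -1.50 in A, B and C, and the goats were between -1.60 and 2.36.

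**Figure D4:**
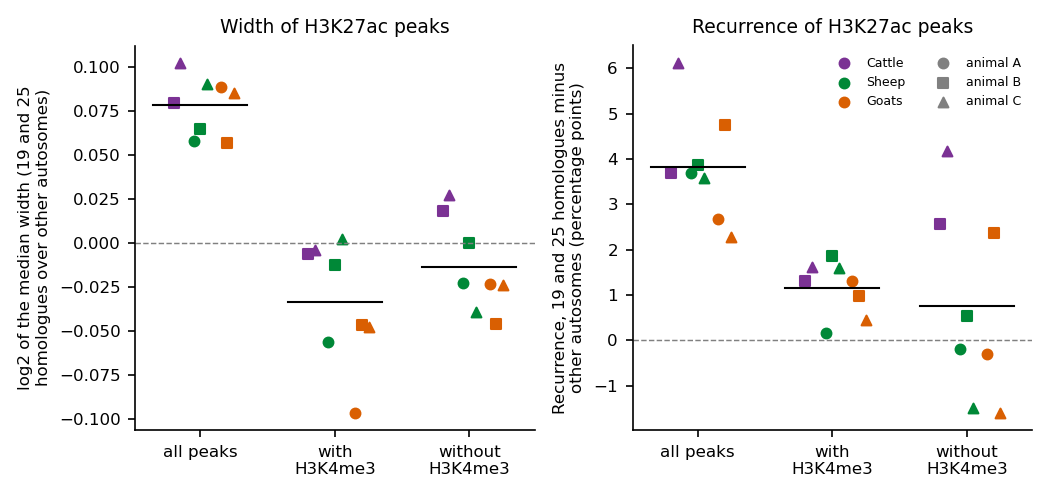
Left, log2 ratio of the median width of H3K27ac peaks on the 19 and 25 homologues to that on the other autosomes, and right, the difference in recurrence in percentage points, for all H3K27ac peaks and for those with and without H3K4me3 overlap. Points are animals, with colours for the species, solid lines are means over the 8 animals and the dashed line is no difference. Widths over all peaks are above 0 in every animal, while the means within the classes are -0.03 and -0.01.

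Strength was compared in the same way. The fold enrichment from the authors' peak calling had medians of 3.68 to 4.02 for H3K27ac on the 19 and 25 homologues and 3.67 to 4.03 on the other autosomes (log2 difference -0.0021, higher in 2 of 8 libraries, p = 0.688, two-sided exact sign-flip test). Within the classes it was lower on these homologues in each of the 8 libraries, by -0.07 on the log2 scale for peaks with H3K4me3 overlap and by -0.06 for peaks without (p = 0.00781 each, exact sign-flip tests). Fold enrichment of H3K4me3 was 6.59 to 7.59 on the homologues and 6.49 to 7.51 elsewhere (log2 difference 0.01, higher in 7 of 9 libraries, p = 0.203, the same exact test). Peaks with more than 1 summit were commoner on the homologues, by 2.35 percentage points for H3K27ac (24.2% to 28.5%, against 21.7% to 25.4%, p = 0.00781) and by 1.93 points for H3K4me3 (31.2% to 40.1%, against 30.2% to 38.6%, p = 0.00391), both by exact sign-flip tests and in every library. Taken as covered length, H3K27ac covered 1.54% to 2.12% of the extent of the homologues, 1.92 to 2.15 times the share on the other autosomes. H3K4me3 covered 1.53% to 2.13%, or 2.18 to 2.47 times as much.

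Consensus regions were built from peaks found in at least 2 animals of a species, which for H3K27ac means 2 of 2 cattle and 2 of 3 sheep or goats. A consensus H3K27ac region was counted as a promoter where H3K4me3 consensus covered at least 50% of it and as an enhancer where no H3K4me3 overlapped. Promoters numbered 1598 on chromosomes 19 and 25 of cattle, 1818 on 11 and 24 of sheep and 1966 on 19 and 25 of goats. These were 15.1, 17.5 and 18.7 per Mb, against 6.23, 6.90 and 7.77 on the other autosomes. Enhancers numbered 962, 794 and 1186, or 9.09, 7.64 and 11.3 per Mb, against 5.31, 5.06 and 7.46. There were 0.602 enhancers for each promoter in cattle, 0.437 in sheep and 0.603 in goats, against 0.852, 0.734 and 0.960 on the other autosomes. The order of the homologues was the same in all 3 species, with 0.621, 0.471 and 0.637 enhancers per promoter on the 19 homologues and 0.572, 0.382 and 0.550 on the 25 homologues. Regions of H3K4me3 with no H3K27ac made up 27.03%, 25.5% and 19.8% of H3K4me3 regions in cattle, sheep and goats, against 32.6%, 31.2% and 22.7%. A consensus has 1 value per species, so these counts have no replicate error.

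The excess was uneven along the chromosomes. Of the 1 Mb windows on the homologues, 37.1% in cattle, 35.0% in sheep and 34.6% in goats held more H3K27ac consensus regions than the 90th percentile of the other autosomes' windows. For H3K4me3 the shares were 41.0%, 45.6% and 41.3%, and for enhancers 21.9%, 16.5% and 17.3%. The median window had 22, 22 and 26 H3K27ac regions in cattle, sheep and goats, against 9, 9 and 12 on the other autosomes. At the other end, windows without any H3K27ac region were 4.76%, 2.91% and 5.77% of the homologues and 13.3%, 12.1% and 9.26% elsewhere.

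The densest 1 Mb windows held from 70 to 89 H3K27ac regions. On cattle 19 the window chr19:27000001-28000000 (build ARS-UCD1.2) was the densest for both marks, with 70 H3K27ac and 68 H3K4me3 regions, 53 of the H3K27ac regions being promoters and 15 enhancers. Goat chr19:26000001-27000000 (build ARS1), which lies at 42.4% of the extent against 43.3% for the cattle window, had 72 H3K27ac and 67 H3K4me3 regions. It was the densest of goat 19 for H3K4me3, while chr19:50000001-51000000 was for H3K27ac, with 83 regions and 23 enhancers. In sheep, chr11:36000001-37000000 (build Oar_rambouillet_v1.0) led for both marks with 77 and 76 regions, at rank 2 of the 2641 windows of that species.

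On the 25 homologues, cattle had chr25:1000001-2000000 with 73 H3K27ac and 61 H3K4me3 regions, level in H3K27ac with chr25:26000001-27000000, which held 63 H3K4me3 regions. Sheep chr24:1000001-2000000 held 72 and 71 regions and led for both marks. The densest window of goat 25 was chr25:26000001-27000000, with 89 H3K27ac and 74 H3K4me3 regions, of which 70 were promoters and 19 enhancers. It had rank 1 for H3K27ac and rank 2 for H3K4me3 among the 2448 windows of the goat autosomes. All these windows held at least 2 promoters for each enhancer, with 51 to 70 promoters and 11 to 23 enhancers. The genes inside them were not named, since no annotation of these builds was used.

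Profiles along the homologues were compared by cutting each into 50 segments of equal length and counting consensus regions. Between cattle 19 and goat 19, Pearson's r across the 50 segments was 0.88 for H3K27ac and 0.93 for H3K4me3, and the densest segment lay at 43.0% of the extent in both. Sheep 11 did not follow them in the order given by its assembly (r = -0.03 and 0.22 with cattle 19). Read from its other end it came closer, with r of 0.49 and 0.53 with cattle 19 and 0.50 and 0.48 with goat 19. Its densest segment was at 59.0%. The 25 homologues ran alike in all 3 species, with r of 0.73 to 0.95 over both marks. These coefficients describe neighbouring segments of 1 pair of chromosomes each and carry no test, and no alignment of the genomes was used.

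On the 25 homologues, H3K4me3 was concentrated in 3 stretches in each species, near the start, at about 61.0% to 63.0% of the extent and at about 85.0% to 87.0%. The densest segment held 54 regions in cattle, 58 in sheep and 59 in goats, where the median segment had 10.5, 12 and 10.5. H3K27ac was empty in 6, 3 and 5 of the 50 segments of cattle 25, sheep 24 and goat 25, but in only 1, 0 and 1 of cattle 19, sheep 11 and goat 19.

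**Figure D5:**
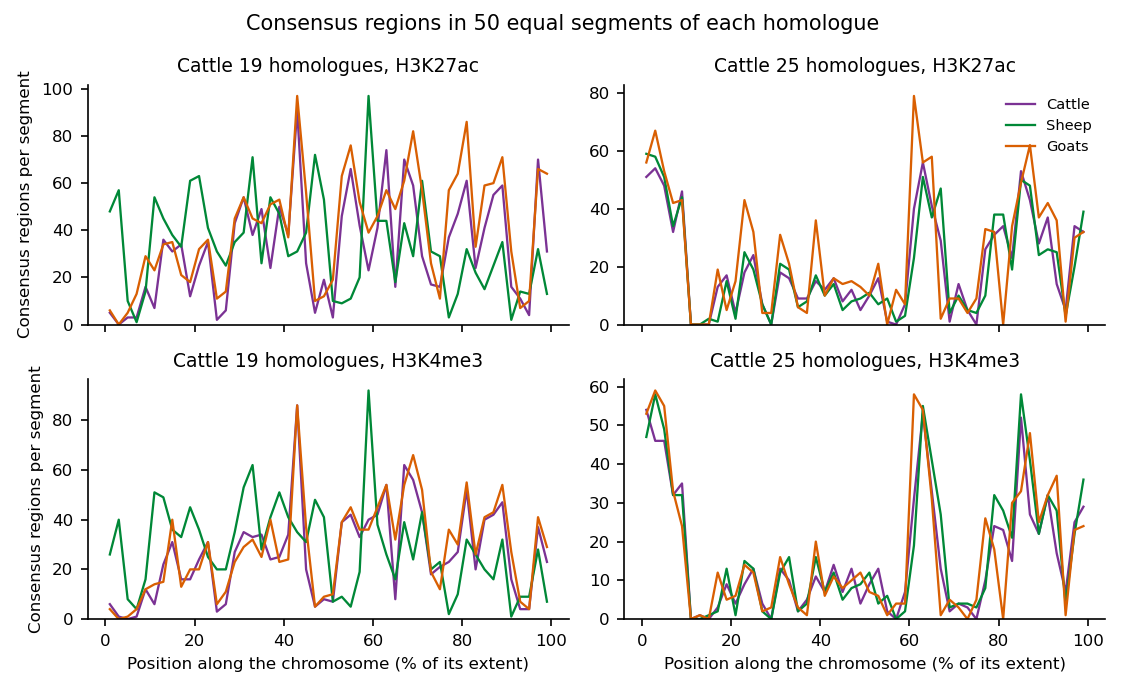
Number of consensus regions (vertical axis) in 50 equal segments of each homologue, plotted by position in percent of its extent (horizontal axis), for H3K27ac (top) and H3K4me3 (bottom). Cattle 19 (purple) and goat 19 (orange) both peak at 43.0% of the extent and sheep 11 (green) at 59.0%, and on the right the 3 curves of the 25 homologues run together.

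The longest stretches free of both marks on the 19 homologues were chr19:25754-1418707 in cattle (1393 kb), chr11:55137661-56261454 in sheep (1124 kb) and chr19:1146948-2327585 in goats (1181 kb). On the 25 homologues they were chr25:4206689-5798035 in cattle (1591 kb), chr24:6480610-7695451 in sheep (1215 kb) and chr25:4124478-5859793 in goats (1735 kb). On the other autosomes the longest such stretch had a median of 2274 kb in cattle, 2148 kb in sheep and 1996 kb in goats, and these chromosomes are mostly longer. Stretches over 100 kb without either mark made up 30.8% to 38.9% of the extent of the 19 homologues, below every other autosome of the same species (38.6% to 73.6% over the 3 species, and at least 44.3% in cattle). The 25 homologues had 46.0% to 48.0% in such stretches, which is within the range of the others.

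Single regions of high rank were picked per chromosome and mark by their poorest rank over the libraries. The strongest H3K27ac regions of the 19 homologues lay at the very start of the assembled chromosome in cattle and goats. In cattle chr19:670-1472 had ranks 6 and 7 among the autosomal peaks of the libraries by −log10 q, with fold enrichments of 17.7 to 20.6. In goats chr19:3086-4064 was at rank 1 in all 3 libraries, with 10.8 to 11.6 fold. They begin 670 and 3086 bp from the first base of the assembled sequence, and whether the ends of the assemblies have a part in their strength was not tested. H3K4me3 peaked at the same places, with chr19:330-1581 at ranks 11 to 12 in cattle and chr19:2506-4052 at rank 2 in each goat library. In sheep, the strongest H3K27ac region of chromosome 11 was chr11:21228934-21229510 (ranks 43 to 60) and that of H3K4me3 chr11:58467934-58469226 (ranks 64 to 92).

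On the 25 homologues the best H3K27ac regions were chr25:32703449-32704273 in cattle (ranks 108 and 142), chr24:1689871-1690519 in sheep (32 to 59) and chr25:16772981-16773917 in goats (47 to 155). For H3K4me3 they were chr25:42320593-42321198 in cattle (ranks 81 to 181), chr24:542228-543155 in sheep (41 to 125) and chr25:511911-512822 in goats (10 to 49). All 12 top regions shared 557 to 967 bp with consensus regions of the other mark. Widest regions of H3K27ac measured 2227 to 2965 bp and the widest H3K4me3 regions 2628 to 3507 bp. The widest of H3K27ac, chr19:27532746-27535710 in cattle, lay in the densest window of that chromosome and shared 2341 of its 2965 bp with H3K4me3. Width and strength were apart here, as its ranks were 5851 and 6133, with fold enrichments of 3.61 to 3.64.

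Whether the species differed in the excess was tested last. For H3K27ac the mean log2 excess was 0.98 ± 0.06 for the cattle libraries (SD, n = 2), 1.04 ± 0.02 for those of sheep and 0.95 ± 0.03 for those of goats (SD, n = 3 each). The sheep values (1.02 to 1.06) lay above all goat values (0.92 to 0.97) and just above both cattle values (0.94 and 1.02). By F, this missed the threshold (5.43, p = 0.0786, exact permutation of species labels, 560 arrangements). For H3K4me3 the means were 1.13 ± 0.01 for the cattle libraries, 1.199 ± 0.05 for those of sheep and 1.16 ± 0.03 for those of goats (SD, n = 3 each), and again the threshold was missed (F = 3.37, p = 0.0607, 1680 arrangements, exact permutation of species labels). The cattle H3K4me3 values (1.11 to 1.14) lay below all others (1.14 to 1.26). Both calls depended on the peaks and animals taken. Without cattle C the H3K27ac test gave p = 0.0286, and without goat A the H3K4me3 test gave p = 0.0429 (exact permutation tests). The former leaves cattle with 1 library, so that the spread within species then comes from sheep and goats alone. Against other autosomes under 80 Mb only, the spread of the species means was smaller, at 0.05 for H3K27ac and 0.03 for H3K4me3 (p = 0.111 and 0.518, exact permutation tests), where it had been 0.09 and 0.07.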

How the data were processed

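Members and lists were chosen with earlier results of these data known. Reads of liver ChIP-seq libraries were trimmed with Trim Galore 0.4.0, checked with FastQC 0.11.2, aligned with BWA 0.7.17 and stripped of duplicates with Picard 2.25.0, and narrow peaks were called with MACS2 2.1.1 at a q of 0.01 after subsampling, per the methods and the submitters' processing notes. By the methods, subsampling brought paired-end libraries, as these are, to a common number of reads. Builds were ARS-UCD1.2 (cattle), Oar_rambouillet_v1.0 (sheep) and ARS1 (goats). Whether inputs served as background is not stated. Each of the 17 deposited lists gives, from the authors' peak caller, a score, a fold enrichment (a ratio), −log10 of the p-value and −log10 of the q-value per summit. These served only to describe, rank or filter peaks. No 2 lists were identical (0 pairs). The 9 input samples have no list here and were not used.

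Rows of 1 interval were joined into 1 peak. Peaks per Mb used the end of the last peak of any library of the species as the extent of a chromosome, since no genome of these builds was used. For the same reason the gene lists drawn up for these chromosomes were not used and no sequence is printed. Peaks on unplaced scaffolds and the X chromosome were left out. Groups follow species and mark in the sample titles, and the labels name no batch.

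Differences within libraries were tested by flipping their sign, marks by permuting labels within species and species by permuting labels with F. All tests were exact, and two-sided except F, with a threshold of 0.05. Of the 35 tests, 14 were planned and 21 added later. Scripts ran on scipy 1.17.1, pandas 2.3.3, numpy 2.4.6 and matplotlib 3.10.9 under Python 3.11.15. Overlap code was checked against bedtools 2.31.1 in 10 comparisons, of which 0 differed. Named regions were, on each chromosome, the region of either mark with the best of its poorest ranks by −log10 q over libraries, the widest one, the densest 1 Mb window and the longest stretch without marks. Alternatives were a stricter q, the 20000 strongest peaks, merged peaks or single summits, other extents, other sets of autosomes, each homologue alone, other overlap and recurrence rules and leaving out each animal. Comparing windows of like H3K4me3 number was added later.

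A letter marks the same liver within a species, as in the titles. It therefore ties the marks of 1 animal together and says nothing across species. Deviations of the log2 excess from the group mean gave Spearman's rho = -0.05 (p = 0.889) and Pearson's r = -0.10 (p = 0.833) between marks over 8 animals (exact permutation, 72 arrangements), and r was -0.33 without the 2 animals farthest from the median.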

Additional observations from a re-analysis of the deposited data

Results flagged for a closer look

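Effects under the same contrast were compared between the 3 species by permuting species labels (exact permutation test with F). Of 15 such tests, 5 had a p under 0.05 and 0 kept it after Benjamini-Hochberg adjustment, where the smallest adjusted value was 0.107.

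The excess of H3K27ac peaks without H3K4me3 per Mb was highest in cattle, with log2 values of 0.68 to 0.78, against 0.57 to 0.65 in sheep and 0.58 to 0.59 in goats (p = 0.0143, exact permutation test). The share of such peaks fell least in cattle, by 8.10 to 9.29 percentage points, against 10.6 to 13.2 in sheep and 10.8 to 11.7 in goats (p = 0.0357, the same exact test). The log2 difference in H3K4me3 width was largest in sheep (0.11 to 0.18, against 0.06 to 0.08 in cattle and 0.00 to 0.08 in goats, p = 0.0357, exact permutation test). For H3K27ac, the 19 homologue exceeded the 25 homologue least in cattle (0.10 to 0.11, against 0.23 to 0.31 in sheep and 0.20 to 0.24 in goats, p = 0.00714, exact permutation test). Fold enrichment of H3K27ac on the 19 and 25 homologues was above that on the other autosomes in both cattle (log2 difference 0.01 and 0.03) and below it in all 3 sheep (-0.02 to -0.0025) and all 3 goats (-0.01 to -0.0025), with p = 0.0214 by the same exact permutation test. The cattle group holds 2 animals for H3K27ac, so each of the H3K27ac results rests on 2 cattle libraries.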

How the results depend on the processing

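Of 238 alternative values for 14 results, 228 kept the direction and the side of the threshold. The median width on the 19 and 25 homologues turned to the narrower side among the 20000 strongest peaks of each library, with log2 differences of -0.0197 for H3K27ac (p = 0.0938) and -0.0282 for H3K4me3 (p = 0.00391, exact sign-flip tests). In windows of like H3K4me3 number the excess of H3K27ac peaks without H3K4me3 fell to 0.0216 and no longer passed the threshold (p = 0.523, exact sign-flip test). The spread of the species means of the H3K27ac excess, 0.0875 on the log2 scale, passed it with 0.112 at a −log10 q of at least 5, 0.0697 for the 20000 strongest peaks and 0.107 on the 19 homologues alone, and lay between 0.0709 and 0.0968 with 1 animal left out. For H3K4me3 the spread of 0.0739 passed it with 0.166 for the 20000 strongest peaks and 0.101 on the 19 homologues alone, fell to 0.0348 on the 25 homologues alone (p = 0.507, exact permutation test), and lay between 0.0460 and 0.0940 with 1 animal left out. Apart from construction of the alternatives, the cause was not tested. With the replicate block, in which marks were paired within an animal, the difference in excess between marks was 0.175 (p = 0.00781, exact sign-flip test over 8 animals), and this pairing changed no call.

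Read depth is not in the lists, extents stand in for chromosome lengths, and 2 or 3 animals are too few for the exact sign-flip test used here to pass the threshold within 1 species. The methods state a common number of reads after subsampling, and how the depth of a library shaped the number of its weak peaks was not tested.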
